A study of Mus musculus with 12 samples.

Results

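The transcripts of 10 genes that encode RNA-binding, intercellular bridge and transcription proteins of germ cells were measured in sorted mouse spermatogonia, the germ cells that divide at the base of the seminiferous tubule. The genes were Dazl, Ddx4, Dnd1, Nanos2, Nanos3, Lin28a, Ybx2, Rbm44, Tex14 and Taf7l. They were chosen by name, for their known roles, with earlier results of these data known. They were found by gene symbol among the 53715 genes of the deposited count table. All 10 had enough counts to be tested, among 19815 tested genes in all. Cells came from testes of mice of a C57BL6/129 background and fell into 4 groups of 3 libraries, which were Tet1KO at 11 months of age, WT at 11 months, Tet1KO at 3 months and WT at 3 months. Tet1 encodes an enzyme that oxidises methylated cytosine in DNA. The labels name no promoter, Cre driver or deleted exon for the Tet1KO allele, and no surface marker for the sort. Each library was made from 1000 cells with Smart-seq2, a method that copies and amplifies full-length transcripts from few cells. Whether the 3 libraries of a group are from different animals is not stated in the labels, so p-values here reflect the scatter among libraries, part or all of which may be technical.

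Germ cells control much of their gene expression after transcription, through proteins that bind messenger RNA and set its translation or decay. DAZL binds the 3' ends of transcripts and promotes their translation, DDX4 is the VASA-type RNA helicase of germ granules, and NANOS2, NANOS3 and DND1 recruit deadenylases to silence transcripts, with NANOS2 required to maintain spermatogonial stem cells in mice. LIN28A blocks maturation of the let-7 microRNAs in undifferentiated spermatogonia. YBX2 stores messenger RNA in spermatocytes and spermatids, TEX14 keeps open the intercellular bridges that join sister germ cells, RBM44 binds TEX14 at those bridges, and TAF7L is a germ cell counterpart of the TAF7 subunit of the transcription factor TFIID. Promoters of several such germline genes, Dazl and Ddx4 among them, hold many CG dinucleotides, the sites of DNA methylation, and are methylated in most somatic cells.

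CG content differed widely between the promoters of these genes. Windows of 8 of the 10 genes were taken from RefSeq (GRCm38.p6), each 300 bases long and reaching 250 bases before a transcript start. Among 32851 such windows in the genome the median number of CG dinucleotides was 7. The more CG-rich of the 2 Ybx2 windows held 40 CG, and 3.91% of all windows held at least as many. The other Ybx2 window held 32. Ddx4 had 38 (4.95% of windows with at least as many), Dazl 28 (14.2%), Tex14 20 (26.5%), Taf7l 17 (31.4%), Lin28a 10 (43.5%) and Nanos3 3 (76.7%). The Nanos3 window (84176503 to 84176802 on chromosome 8) lies inside the gene as annotated for the counts, which starts at 84185217 on the minus strand. The Ybx2 window with 32 CG also lies inside its counted gene. The Nanos2 window held none, as did 5.43% of all windows. The letters CACGTG, the E-box read by MYC-type factors, occurred once each in the Ddx4 and Taf7l windows and in 7.15% of all windows. The letters TCCCGC, searched on both strands, occurred in 2 places in the Ybx2 window with 40 CG and once in that with 32 CG. They also occurred once each for Tex14 and Ddx4, and in 19.98% of all windows. Matches of letters describe these windows and are not evidence of a bound factor. Methylation was not measured in these samples. The bases upstream of the annotated starts are shown for Dazl and Taf7l, the members with the highest transcript levels, and for Nanos2, the member with the lowest level and with no CG. They are written 5' to 3' on the strand of the gene with each CG in capitals, from chr17:50293637-50293870 (minus strand), chrX:134476491-134476740 (minus strand) and chr7:18987274-18987399 (plus strand).
Dazl: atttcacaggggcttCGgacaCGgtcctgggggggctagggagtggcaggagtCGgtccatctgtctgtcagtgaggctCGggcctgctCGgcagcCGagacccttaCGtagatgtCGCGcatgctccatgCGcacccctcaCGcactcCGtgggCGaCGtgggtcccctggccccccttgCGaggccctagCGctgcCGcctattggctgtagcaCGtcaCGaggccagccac
Taf7l: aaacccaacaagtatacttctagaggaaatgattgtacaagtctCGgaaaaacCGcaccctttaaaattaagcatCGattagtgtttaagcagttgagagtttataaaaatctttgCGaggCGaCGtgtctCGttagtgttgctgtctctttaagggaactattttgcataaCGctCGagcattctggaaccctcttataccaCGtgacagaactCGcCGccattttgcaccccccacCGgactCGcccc
Nanos2: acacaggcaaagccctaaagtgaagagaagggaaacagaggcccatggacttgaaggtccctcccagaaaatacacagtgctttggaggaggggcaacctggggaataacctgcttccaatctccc
The printed stretches of Dazl and Taf7l held 19 CG in 234 bases and 14 CG in 250 bases, and the Nanos2 stretch held none in 126 bases.

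Total counts per library ran from 8325159 to 18223645, so that 3 counts, the limit that a count of 0 allows, corresponded to 0.162 to 0.402 CPM (counts divided by the TMM-scaled library total and put on a common scale). These limits cover counting error only. Tet1 itself had 1, 17 and 5 counts in the Tet1KO libraries of 11 months, 1, 16 and 5 in the WT libraries of 11 months, 6, 11 and 18 in the Tet1KO libraries of 3 months and 15, 16 and 0 in the WT libraries of 3 months. The groups overlapped, and counts over the whole gene do not check a genotype when the deleted exons are unknown. At 3 months, Tet1KO replicate 2 and WT replicate 1 stood apart from the other libraries on the first principal component (39.0% of the variance) and had counts in 30010 and 29420 genes, compared with 26995 or fewer in every other library. All 15 markers of undifferentiated spermatogonia were detected, with summed levels of 209 to 423 CPM over the 12 libraries. The 9 markers of meiotic prophase summed to 1726 to 5023 CPM and the 8 of spermatids to 288 to 2830 CPM. Transcripts counted for these later stages were thus present beside those of spermatogonia markers in each library, and which cells held them was not tested. Sycp3, a large part of the meiotic sum, shares 660 of its 1264 exon bases with Chpt1 on the opposite strand, and the counting did not use strand. In bulk samples of this kind, fewer cells of a type and less RNA per cell cannot be told apart.

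The 10 genes differed widely in transcript level. On the RPKM scale (CPM per kilobase of exon, which allows genes of unequal length to be set side by side), Dazl was the highest, with a lowest, median and highest library of 561, 688 and 851 RPKM. Its mean over the 12 libraries was at or above that of 99.6% of tested genes. Taf7l followed with 227, 323 and 403 RPKM, and Ddx4 with 86.6, 102 and 128 RPKM. In these 3 genes every library of the higher one lay above every library of the next, so their order did not depend on the library chosen.

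Below them lay the RNA-binding and bridge genes of intermediate level. Nanos3 had a lowest, median and highest library of 16.4, 32.2 and 65.3 RPKM, Tex14 of 16.6, 21.4 and 29.5 RPKM, and Rbm44 of 13.2, 15.1 and 17.1 RPKM. Nanos3 exceeded Tex14 in 10 of 12 libraries with overlapping ranges, and the difference between these neighbours was not tested. Tex14 exceeded Rbm44 in all 12 libraries although their ranges overlapped. Dnd1 followed with 7.76, 9.03 and 11.4 RPKM and Ybx2 with 2.56, 4.70 and 9.83 RPKM, and Dnd1 was the higher of these in 11 of 12 libraries.

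The lowest members were Lin28a and Nanos2. Lin28a had a lowest, median and highest library of 0.347, 1.42 and 1.90 RPKM. Of tested genes, 30.9% had a mean RPKM over the libraries no higher than that of Lin28a. Nanos2 had 0, 0.850 and 1.19 RPKM, and 22.1% of tested genes had a mean no higher than that of Nanos2. Lin28a exceeded Nanos2 in 10 of 12 libraries and their ranges overlapped.

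**Figure D1:**
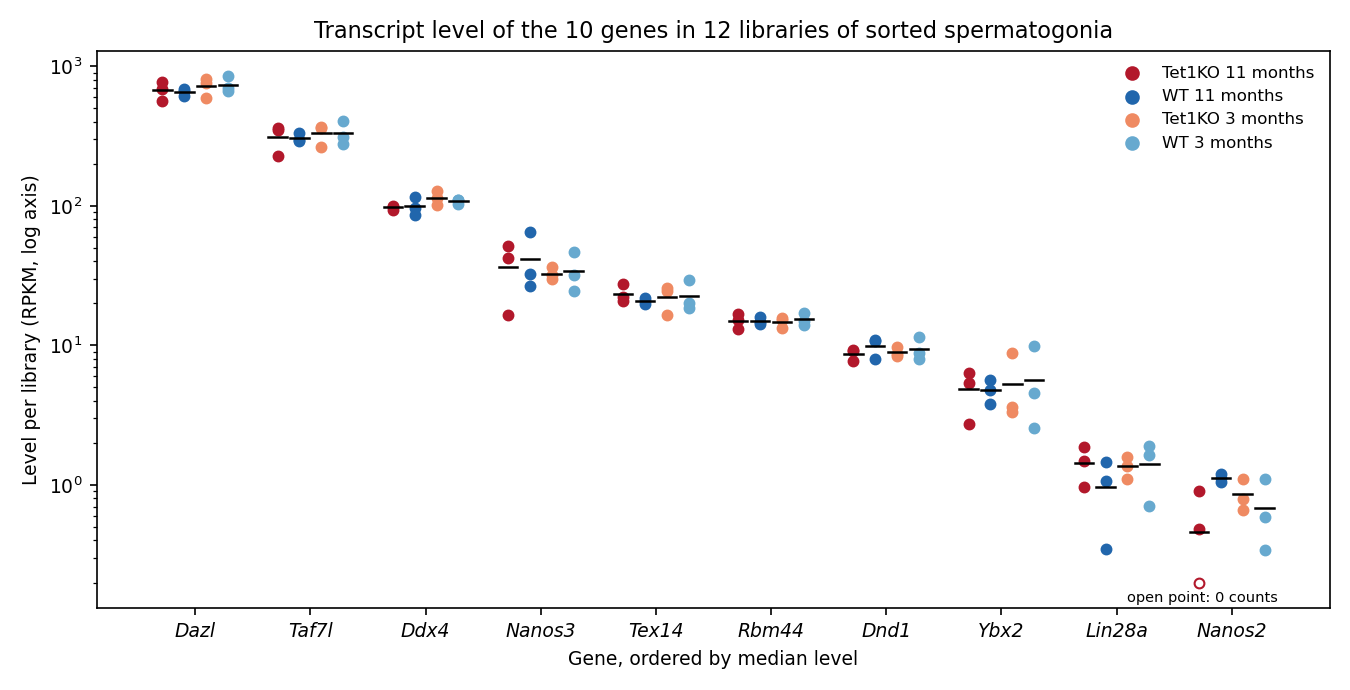
Transcript level of each of the 10 genes in 12 libraries (RPKM, log axis), with genes ordered by median level; points are libraries, coloured by group, bars are group means, and the open point marks a library with 0 counts of Nanos2, placed at the foot of the axis. Dazl lies between 561 and 851 RPKM in every library and Nanos2 between 0 and 1.19 RPKM, and at each age the Tet1KO and WT points overlap for every gene except Nanos2 at 11 months.

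The genes also differed in how evenly they were expressed. The coefficient of variation of CPM over all 12 libraries was 8.10% for Rbm44, and only 0.929% of tested genes had a smaller one. It was 10.8% for Ddx4, 12.7% for Dazl, 13.5% for Dnd1, 15.8% for Taf7l and 16.96% for Tex14. The remaining 4 genes varied more, with 36.2% for Lin28a, 36.5% for Nanos3, 44.7% for Ybx2 and 47.8% for Nanos2. Lin28a, Ybx2 and Nanos2 were also the lowest in level, but Nanos3 was not.

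At 11 months, no member was called different between Tet1KO and WT spermatogonia. By edgeR's quasi-likelihood test with Benjamini-Hochberg adjustment, 0 of 10 members and 0% of the 19815 tested genes passed an adjusted p of 0.05. At an unadjusted p under 0.05 the counts were 0 of 10 members and 326 tested genes (1.65%). DESeq2 called 3 genes and limma-voom called none, and no member was among them. Of the members, 6 had a positive and 4 a negative log2 fold change, with a median of 0.0099 against 0.024 over all tested genes. Of all tested genes, 53.8% had a positive one.

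Among the translational regulators of highest level, Dazl had 2019, 1651 and 2274 CPM in Tet1KO libraries of 11 months, against 2026, 1809 and 1959 CPM in WT libraries of 11 months. The groups overlapped, with a log2 fold change of 0.037 ± 0.19 (SE; 95% interval -0.38 to 0.46). Ddx4 had 302, 296 and 283 CPM in Tet1KO libraries and 261, 348 and 289 CPM in WT libraries, all 3 Tet1KO values lying within the WT range (log2 fold change -0.028 ± 0.14, interval -0.34 to 0.29). For both genes the interval leaves out a doubling or a halving.

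The genes that silence transcripts through deadenylation were each lower on average in Tet1KO, and none passed the test. Dnd1 averaged 21.1 ± 2.06 CPM in Tet1KO and 24.0 ± 4.05 CPM in WT libraries (SD, n = 3 each; log2 fold change -0.18 ± 0.19). Nanos3 had 15.1, 39.2 and 47.5 CPM in Tet1KO libraries, against 24.5, 29.98 and 60.3 CPM in WT libraries. Both groups were widely spread and overlapped (log2 fold change -0.17 ± 0.42, interval -1.10 to 0.76). The direction for Nanos3 turned with single libraries, to 0.30 without WT replicate 3 and to 0.18 without Tet1KO replicate 1.

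Nanos2 was the single member whose groups did not overlap. It had 0, 1.41 and 0.752 CPM in Tet1KO libraries of 11 months, against 1.64, 1.87 and 1.75 CPM in WT libraries of 11 months. These levels rest on 0, 14 and 9 counts in Tet1KO and 26, 32 and 16 counts in WT libraries, and the library at 0 allows up to 0.185 CPM. The log2 fold change was -1.31 ± 0.95 (interval -3.40 to 0.77), with an unadjusted p of 0.194 and an adjusted p of 1 by edgeR's quasi-likelihood test. Among all tested genes, 2.54% had every Tet1KO library below every WT library at this age and 2.82% had every one above. Without Tet1KO replicate 1 the log2 fold change was -0.70, without Tet1KO replicate 2 it was -2.25, and limma-voom gave -2.86 with all libraries. Nanos2 (chromosome 7, 18987400 to 18988962, plus strand, mm10) shares 766 of its 1563 exon bases with Gm45058 on the opposite strand, and the counting did not use strand. Gm45058 had 0, 4 and 0 counts in the Tet1KO libraries and 14, 16 and 7 counts in the WT libraries. If every Gm45058 count were also a Nanos2 count, Nanos2 alone would keep 0, 1.004 and 0.752 CPM in Tet1KO and 0.757, 0.933 and 0.987 CPM in WT libraries, and the groups would overlap. Reads of the 2 genes cannot be told apart in these counts.

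**Figure D2:**
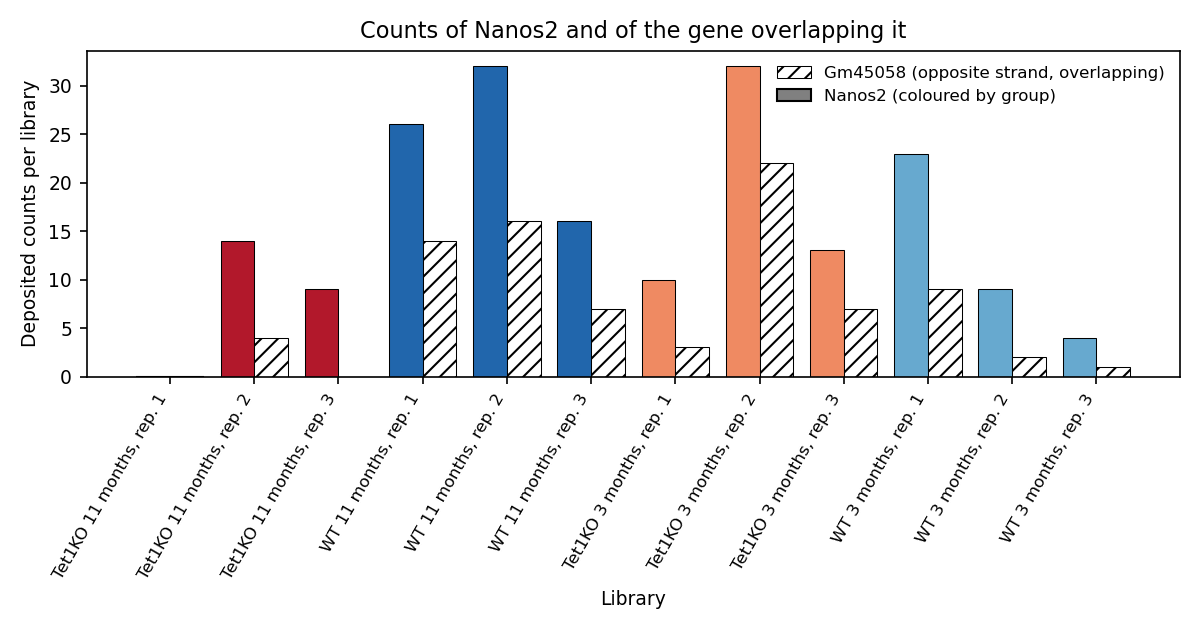
Deposited counts per library (vertical axis) of Nanos2 (filled bars, coloured by the group named under each library) and of Gm45058, which overlaps it on the opposite strand (hatched bars). The 3 Tet1KO libraries of 11 months hold 0, 14 and 9 counts of Nanos2 and the 3 WT libraries of that age 26, 32 and 16, and Gm45058 is also higher in those WT libraries.

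Lin28a had 3.88, 5.93 and 7.44 CPM in Tet1KO libraries of 11 months, against 1.39, 5.83 and 4.28 CPM in WT libraries of 11 months. The groups overlapped, with a log2 fold change of 0.58 ± 0.51 (interval -0.54 to 1.71) and an unadjusted p of 0.28 by edgeR. Tet1KO was the higher in each of the 3 same-numbered pairs, though by little for replicate 2 (5.93 against 5.83 CPM). The labels state no pairing, and the share of all tested genes with such a pattern was not computed. The edgeR fit with the replicate number as a block gave a log2 fold change of 0.68 with an adjusted p of 1. The low WT replicate 1 carried most of this difference, since without it the log2 fold change was 0.17, and it was 1.03 without WT replicate 2. Ybx2 averaged 9.11 ± 3.54 CPM in Tet1KO and 8.98 ± 1.81 CPM in WT libraries (SD, n = 3 each).

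Of the bridge genes, Tex14 had 112, 104 and 138 CPM in Tet1KO libraries, against 110, 104 and 98.9 CPM in WT libraries of 11 months (log2 fold change 0.18 ± 0.21). Rbm44 averaged 98.2 ± 11.7 CPM in Tet1KO and 97.9 ± 5.59 CPM in WT libraries (SD, n = 3 each). Its log2 fold change of 0.0047 ± 0.13 had an interval of -0.28 to 0.29, among the narrowest of the members. Taf7l had 779, 509 and 805 CPM in Tet1KO and 752, 662 and 658 CPM in WT libraries, with Tet1KO replicate 2 the lowest (log2 fold change 0.015 ± 0.22). At this age all 6 peritubular myoid markers had a negative log2 fold change, 5 of them at an unadjusted p under 0.05 and none at the adjusted threshold, with summed levels of 22.9 to 54.9 CPM in Tet1KO against 71.4 to 241 CPM in WT libraries. All 8 leukocyte markers had a positive log2 fold change, with overlapping sums of 280 to 572 CPM in Tet1KO and 49.4 to 568 CPM in WT libraries. Of the 9 Sertoli cell markers 8 had a negative log2 fold change (median -1.31), and all 8 spermatid markers a positive one (median 0.22), with overlapping sums in both lists. The part of these markers in the members' values was not tested.

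At 3 months, no member was called different between Tet1KO and WT spermatogonia either, and no member's groups were separate. Again 0 of 10 members and 0% of tested genes passed the adjusted threshold of edgeR's test. At an unadjusted p under 0.05 the counts were 0 of 10 members and 225 tested genes (1.14%), with 2 genes called by DESeq2 and none by limma-voom. Groups did not overlap in 3.32% of tested genes with Tet1KO higher and in 3.62% with Tet1KO lower. The members' median log2 fold change was -0.047 (2 positive, 8 negative), against -0.022 over all tested genes, of which 46.8% were positive.

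Dazl had 2390, 1732 and 2243 CPM in Tet1KO libraries of 3 months, against 1966, 2059 and 2503 CPM in WT libraries of 3 months (log2 fold change -0.036 ± 0.19). Ddx4 had 305, 386 and 345 CPM in Tet1KO and 332, 334 and 310 CPM in WT libraries (log2 fold change 0.087 ± 0.14, interval -0.23 to 0.40). The low Dazl value and the high Ddx4 value both came from Tet1KO replicate 2, one of the libraries that stood apart. Among the silencing genes, Nanos2 had 1.03, 1.72 and 1.25 CPM in Tet1KO and 1.74, 0.923 and 0.537 CPM in WT libraries of 3 months. Its groups overlapped at this age and its log2 fold change was 0.31 ± 0.93 (interval -1.74 to 2.35). Leaving out WT replicate 3 gave 0.035 and leaving out WT replicate 1 gave 0.86, while the fit without both libraries that stood apart gave 0.62. The overlap with Gm45058 limits this age too. If every Gm45058 count were also a Nanos2 count, Nanos2 alone would keep 0.723, 0.539 and 0.577 CPM in Tet1KO libraries of 3 months. The WT libraries of 3 months would keep 1.06, 0.718 and 0.402 CPM. No fit was repeated on such reduced counts, for this age or for the difference between ages. The difference between the Tet1KO effects at 11 and 3 months was -1.62 ± 1.33 on the log2 scale for Nanos2 (edgeR unadjusted p = 0.247) and 0.65 ± 0.72 for Lin28a (edgeR unadjusted p = 0.389). With 1 library left out at a time it ran from -2.56 to -1.01 for Nanos2 and from 0.22 to 1.10 for Lin28a, and limma-voom gave -3.15 for Nanos2 and 1.02 for Lin28a. For that difference 0% of tested genes passed the adjusted threshold and 1.57% the unadjusted one, with no member in either.

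Nanos3 averaged 30.2 ± 3.10 CPM in Tet1KO and 31.7 ± 10.3 CPM in WT libraries of 3 months, and Dnd1 21.5 ± 1.68 CPM in Tet1KO and 22.7 ± 4.36 CPM in WT libraries (SD, n = 3 each). Both differed by less than the spread between replicates. Lin28a averaged 5.42 ± 0.970 CPM in Tet1KO and 5.66 ± 2.52 CPM in WT libraries, also within that spread. Ybx2, the storage protein gene of later germ cells, had 6.82, 16.7 and 6.25 CPM in Tet1KO libraries, against 18.5, 8.62 and 4.83 CPM in WT libraries. Its highest values fell in the libraries that stood apart, 1 in each genotype, where the spermatid markers summed to 1350 CPM in Tet1KO replicate 2 and 2830 CPM in WT replicate 1. At 11 months these markers summed to 2390 CPM in Tet1KO replicate 1 and 2610 CPM in WT replicate 1. Ybx2 ranked only 8 and 7 of 12 from the lowest in those libraries. Whether Ybx2 follows the spermatid markers was not tested.

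The bridge genes and Taf7l showed the same lack of separation at 3 months. Tex14 had 129, 83.4 and 123 CPM in Tet1KO and 101, 93.0 and 148 CPM in WT libraries. Rbm44 averaged 96.2 ± 8.04 CPM in Tet1KO and 100.1 ± 10.1 CPM in WT libraries (SD, n = 3 each), and Taf7l 742 ± 129 CPM in Tet1KO and 744 ± 144 CPM in WT libraries (SD, n = 3 each). With both libraries that stood apart left out, no member passed the test, and the log2 fold changes of Dazl, Nanos3, Tex14 and Taf7l were 0.02, 0.12, 0.07 and 0.02 in place of small negative values. All 9 Sertoli cell markers had a negative log2 fold change at 3 months, 3 of them at an unadjusted p under 0.05 and none at the adjusted threshold. Their summed levels were 21.2 to 78.3 CPM in Tet1KO and 90.5 to 278 CPM in WT libraries. All 8 spermatid markers also had a negative log2 fold change at this age (median -0.52), with overlapping sums. The part of these markers in the members' values was not tested.

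**Figure D3:**
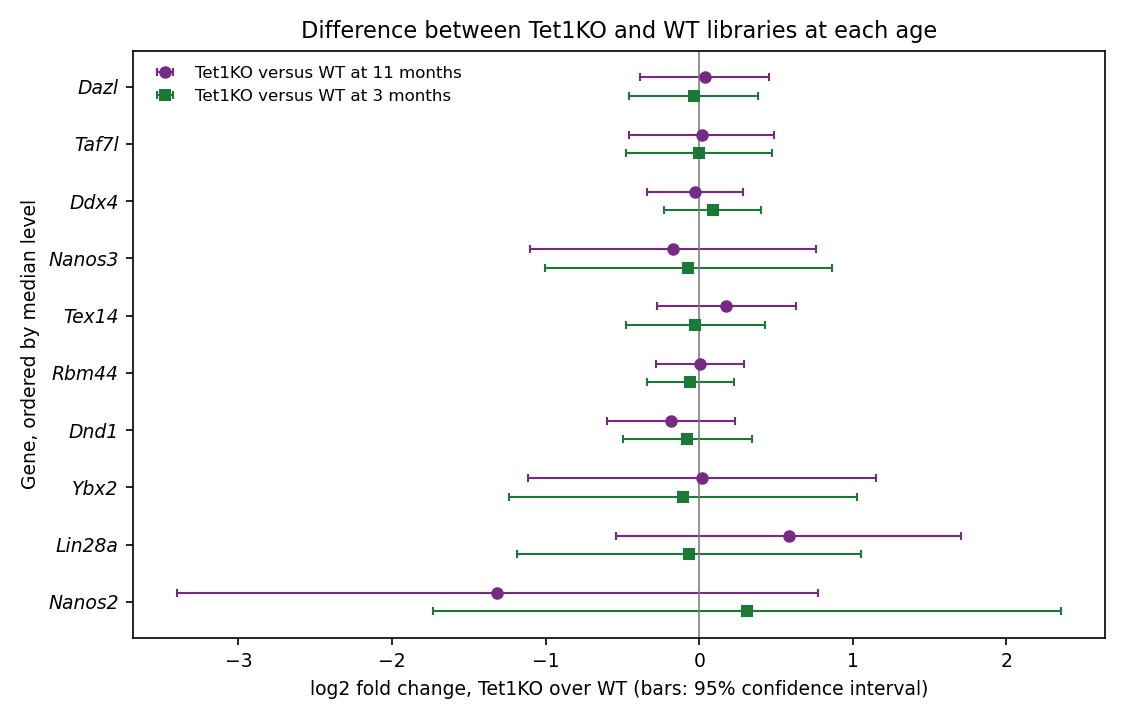
Log2 fold change of each gene between Tet1KO and WT libraries at 11 months (circles) and at 3 months (squares), from the fit over all 12 libraries; bars are 95% confidence intervals. Every interval includes 0, and the widest, for Nanos2 at 11 months, runs from -3.40 to 0.77.

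Age was compared over both genotypes together, with 6 libraries at each age. No member passed the test between 11 and 3 months, where 0% of tested genes passed the adjusted threshold of edgeR's test and 1550 genes (7.82%) had an unadjusted p under 0.05. DESeq2 called 17 genes for age, with no member among them, and limma-voom none. The members' median log2 fold change was -0.11 (2 positive, 8 negative), against -0.023 over all tested genes, of which 46.4% were positive. Ddx4 had the smallest p of the members. Its lowest, median and highest library were 261, 293 and 348 CPM at 11 months and 305, 333 and 386 CPM at 3 months, so the ages overlapped (log2 fold change -0.18 ± 0.10, edgeR unadjusted p = 0.11, adjusted p = 0.667). Dazl had 1651, 1989 and 2274 CPM at 11 months and 1732, 2151 and 2503 CPM at 3 months (log2 fold change -0.14 ± 0.14). Rbm44 averaged 98.0 ± 8.23 CPM at 11 months and 98.1 ± 8.44 CPM at 3 months (SD, n = 6 each), with an interval of -0.20 to 0.20 on the log2 scale. Ybx2 ran from 5.18 to 12.1 CPM at 11 months and from 4.83 to 18.5 CPM at 3 months. Its log2 fold change of -0.19 ± 0.37 turned to 0.45 without the libraries that stood apart, and that of Nanos2, -0.12 ± 0.65, turned to 0.27.

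Libraries varied within groups, and several members shared their low and high libraries. Tet1KO replicate 2 of 11 months was the lowest of 12 libraries for Dazl, Taf7l and Rbm44, and it was also the lowest for the summed meiotic prophase markers (1726 CPM) and differentiating spermatogonia markers (694 CPM). WT replicate 3 of 3 months was the highest for Dazl, Taf7l, Rbm44 and Tex14, and also for the meiotic prophase markers (5023 CPM). Tet1KO replicate 2 of 3 months held the lowest Tex14 value. These 4 genes therefore had their extremes in few libraries, of both genotypes and both ages. Further libraries departed from the meiotic sum. In Tet1KO replicate 1 of 11 months that sum ranked 11 of 12 from the lowest (4614 CPM), and Dazl, Taf7l, Rbm44 and Tex14 ranked 6, 8, 7 and 8. In WT replicate 2 of 11 months it ranked 2 (2746 CPM), and the 4 genes ranked 3, 5, 10 and 6.

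Nanos2, Nanos3 and Lin28a, genes known from undifferentiated spermatogonia, had their lows elsewhere. The NANOS genes were lowest in Tet1KO replicate 1 of 11 months and Lin28a in WT replicate 1 of 11 months. The summed undifferentiated markers were 209 CPM and 225 CPM in these libraries, the lowest of the 12. WT replicate 3 of 3 months, with the next lowest sum of 232 CPM, was the second lowest of 12 for all 3 genes. Other libraries did not follow the sum. Nanos2 ranked 8 of 12 from the lowest in WT replicate 1 of 11 months. Where the sum was highest (423 CPM, Tet1KO replicate 2 of 11 months), Nanos2, Nanos3 and Lin28a ranked 7, 9 and 8. Where it ranked 11 (399 CPM, Tet1KO replicate 1 of 3 months), they ranked 5, 5 and 6. Spermatid markers did not follow one direction with these genes. They summed to 2390 CPM in Tet1KO replicate 1 and 2610 CPM in WT replicate 1 of 11 months, but to 482 CPM in WT replicate 3 of 3 months, and to 2830 CPM in WT replicate 1 of 3 months, where Nanos2, Nanos3 and Lin28a each ranked 10 of 12 from the lowest. How far the mixture of germ cell stages in a library accounts for the members' values was not tested.

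**Figure D4:**
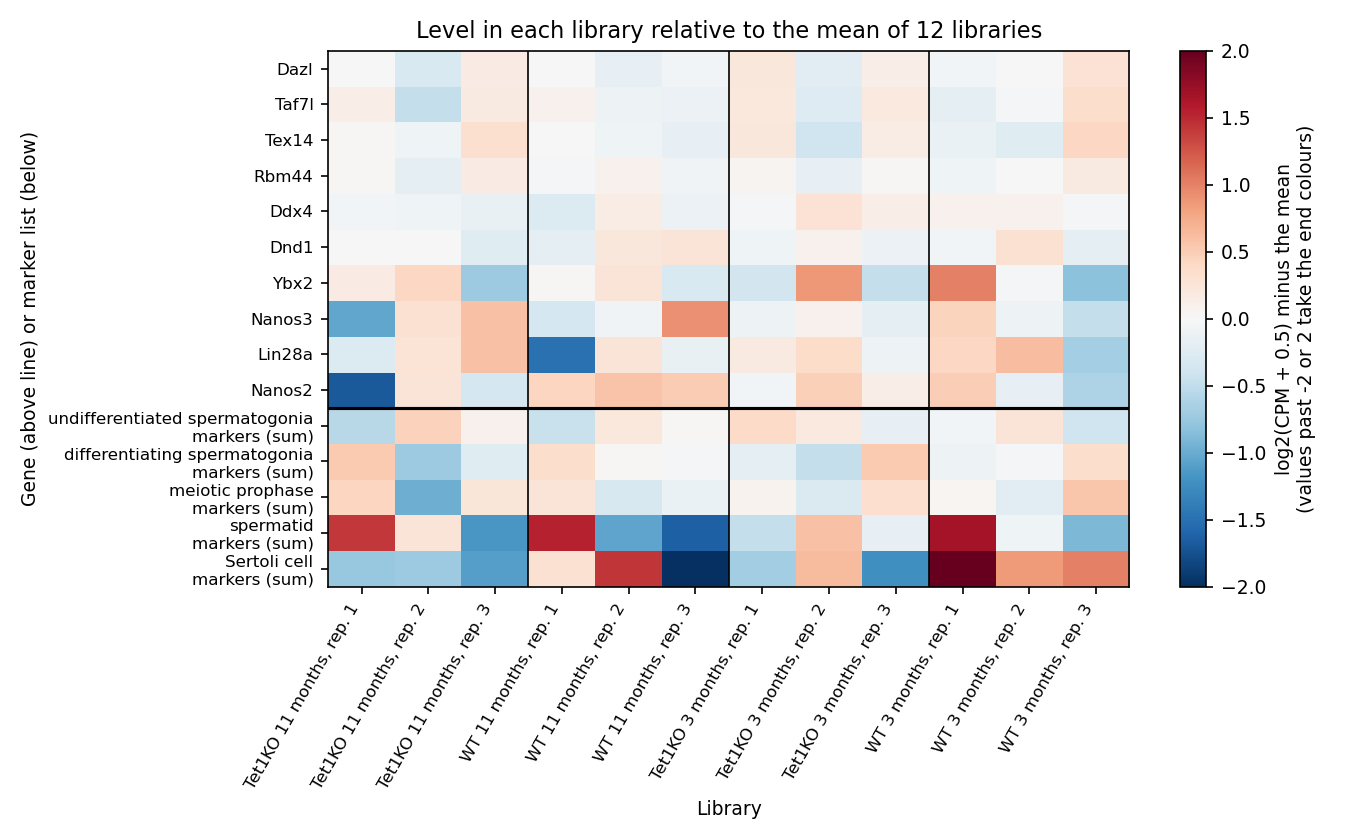
Level of each member (above the horizontal line) and summed level of 5 marker lists (below it) in each library, as log2(CPM + 0.5) minus the mean over the 12 libraries; red is above and blue below that mean, and vertical lines separate the groups. Dazl, Taf7l and Rbm44 are lowest in Tet1KO replicate 2 of 11 months, where the meiotic prophase markers also have their lowest sum of 1726 CPM. In WT replicate 2 of 11 months that sum ranks 2 of 12 from the lowest, while Rbm44 ranks 10.

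Partner genes in the same pathways were described in 6 lists, and no gene of any list passed the adjusted threshold for genotype at either age. The deadenylase list held 12 tested subunits and partners of the CCR4-NOT complex, through which NANOS proteins act, with a median log2 fold change of 0.028 at 11 months and -0.0021 at 3 months. Cnot7, a catalytic subunit and the highest of the list, averaged 206 ± 16.1 CPM in Tet1KO and 211 ± 3.84 CPM in WT libraries at 11 months. Cnot8, also catalytic, averaged 55.2 ± 11.3 CPM in Tet1KO and 44.0 ± 2.06 CPM in WT libraries at 3 months (SD, n = 3 each; edgeR unadjusted p = 0.0836). Cnot9, another subunit of the complex, had a log2 fold change of -0.22 ± 0.29 at 11 months and 0.41 ± 0.29 at 3 months.

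The 7 tested genes of the DAZ and PUF families and of poly(A) binding had medians of -0.037 at 11 months and -0.029 at 3 months. Boll, the DAZL relative of meiotic cells, averaged 114 ± 29.9 CPM in Tet1KO and 114 ± 12.7 CPM in WT libraries at 11 months (SD, n = 3 each). Pabpc1, a cytoplasmic poly(A)-binding protein, had a log2 fold change of 0.18 ± 0.22 at 11 months, and its relative Pabpc4 one of -0.14 ± 0.18. The 11 tested genes of LIN28 and let-7 processing had medians of 0.044 at 11 months and -0.017 at 3 months. In that list Dis3l2, the exonuclease that degrades uridylated let-7 precursors, had a log2 fold change of -0.58 ± 0.38 at 3 months (edgeR unadjusted p = 0.149). Drosha, the nuclear microRNA processor, had one of 0.13 ± 0.19 at 11 months, and Igf2bp1, an RNA-binding let-7 target, one of 0.29 ± 0.21 at 3 months.

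The 5 tested genes of the Y-box and FMR1 families had medians of 0.061 at 11 months and -0.018 at 3 months. Ybx1, the broadly expressed relative of Ybx2, had a mean of 67.9 RPKM over the 12 libraries, Fxr1 27.6 RPKM and Ybx3 9.70 RPKM, against 5.13 RPKM for Ybx2. The 13 tested genes of abscission and the bridge had medians of -0.033 at 11 months and 0.042 at 3 months. Tsg101, an abscission factor, averaged 278 ± 87.1 CPM in Tet1KO and 302 ± 24.7 CPM in WT libraries at 11 months (SD, n = 3 each). Anln, the anillin of contractile rings and bridges, had a log2 fold change of 0.19 ± 0.15 at 11 months, and Chmp4b, an ESCRT-III subunit, one of -0.50 ± 0.32 at 3 months. Neither passed the unadjusted threshold.

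The 17 tested genes of TFIID and the TBP family had medians of -0.098 at 11 months and -0.0094 at 3 months. Taf8, a TFIID subunit, was the one gene of the 6 lists with an unadjusted p under 0.05 for genotype. It averaged 23.9 ± 2.81 CPM in Tet1KO and 15.998 ± 2.59 CPM in WT libraries at 3 months (SD, n = 3 each; log2 fold change 0.58 ± 0.25, edgeR unadjusted p = 0.04, adjusted p = 1), against the 1.14% of all tested genes at that threshold. At 11 months its log2 fold change was -0.26 ± 0.25. Tbp, the TATA-binding protein, had a log2 fold change of -0.20 ± 0.13 at 11 months. Taf9 had the highest level of the list, 442 RPKM over the 12 libraries, but 1564 of its 2120 exon bases are shared with Ak6 on the same strand, so its counts include reads of that gene.

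By the deposited annotation (mm10), Dazl lies on chromosome 17 (50279394 to 50293599, minus strand), Ddx4 on 13 (112598333 to 112652475, minus), Nanos3 on 8 (84173731 to 84185217, minus) and Lin28a on 4 (134003330 to 134018841, minus). Ybx2 lies on chromosome 11 (69935796 to 69941605, plus), as does Tex14 (87405065 to 87555823, plus). Rbm44 lies on chromosome 1 (91145089 to 91170795, plus), Taf7l on X (134460118 to 134476490, minus) and Dnd1 on 18 (36763671 to 36766214, minus). Other members overlap neighbouring genes less than Nanos2. Lin28a shares 234 exon bases with Gm13061 on the opposite strand, which had at most 2 counts in a library. Dnd1 shares 38 exon bases with Wdr55 on the opposite strand, which had 231 to 843 counts per library against 143 to 447 for Dnd1. How many of these reads fell on the shared bases cannot be told from the counts. Dazl, Ddx4, Nanos3, Ybx2, Rbm44, Tex14 and Taf7l share no exon base with another annotated gene.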

How the data were processed

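RNA was sequenced from 12 samples of sorted mouse spermatogonia. The authors deposited 1 table of raw counts, whole numbers per gene and library, with exon length per gene. Per the file headers, fragments of mapping quality 30 or more were assigned to GENCODE vM17 genes by featureCounts 1.6.2, ignoring strand, and a fragment lying on several genes was added to each. The submitters' processing notes name HISAT2, SAMtools and the build mm10, with tool versions not given in the sources used. A GENCODE vM21 table supplied symbols by gene identifier for 53620 of 53715 genes.

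From the deposited counts, CPM on TMM-scaled library totals and RPKM were computed. All 12 libraries entered 1 edgeR 4.0.16 model (R 4.3.3; filterByExpr; 19815 genes) with a mean per group. Two-sided robust quasi-likelihood F tests were run on contrasts of that model, p-values were adjusted by Benjamini-Hochberg over all tested genes (threshold 0.05), and standard errors were derived from the F statistic. The fit was checked on simulated counts for genotype at 3 months, where it missed most 2-fold changes and recovered most 4-fold changes. Alternatives were other scalings and filters, DESeq2 1.42.0, limma 3.58.1 (voom with sample weights), a replicate block, and leaving out libraries. Library pairs within groups differed by far more than counting noise, the chi-square divided by its degrees of freedom being 10.9 or more, and each counted as 1 replicate.

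Replicate numbers are shared between genotypes. At 11 months same-numbered Tet1KO and WT libraries deviated together from their group means (r = 0.37, 0.17 and 0.33 for the 3 pairs, across genes), a hint of pairing from the data alone. At 3 months r was -0.59, -0.18 and 0.30.

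The members, the pathway and marker lists and the library exclusions were chosen with earlier results of these data known. Beside all members, the text names from each pathway list the 2 genes with the smallest unadjusted p for genotype at either age and the gene of highest RPKM.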

Additional observations from a re-analysis of the deposited data

How the results depend on the processing

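No member value examined passed the threshold in any of the 20 alternative fits (smallest adjusted p 0.583; the difference of the genotype effects was followed there for Nanos2 and Lin28a alone), and no group mean level moved by more than the spread between replicates with library totals as the scale. Counts of called genes were 0 in edgeR and limma-voom fits, while DESeq2 called 3 genes for genotype at 11 months, 2 for genotype at 3 months and 17 for age, and the cause was not tested. Of 640 refitted log2 values of members (32 values in 20 fits), 90 changed sign, each of a result within 0.213 of 0 on the log2 scale. The changed values, on the log2 scale, follow. RLE size factors gave for genotype at 11 months Rbm44 -0.0064. Library totals alone gave for genotype at 3 months Dazl 0.031, Rbm44 0.0071, Tex14 0.050, Taf7l 0.066 and for age Rbm44 0.029, Tex14 0.0082. No filter gave for genotype at 11 months Rbm44 -0.010 and for genotype at 3 months Taf7l 0.012 and for age Rbm44 0.017. DESeq2 gave for genotype at 11 months Rbm44 -0.0064. Limma-voom gave for genotype at 11 months Dazl -0.0089, Ddx4 0.0071, Rbm44 -0.00083, Taf7l -0.038 and for genotype at 3 months Dazl 0.069, Rbm44 0.0012, Tex14 0.20, Taf7l 0.12 and for age Dnd1 -0.010, Ybx2 0.046. The replicate block gave for genotype at 11 months Ybx2 -0.056, Rbm44 -0.0038, Taf7l -0.013 and for age Rbm44 0.0015. Leaving out both libraries that stood apart gave for genotype at 3 months Dazl 0.021, Nanos3 0.12, Tex14 0.068, Taf7l 0.025 and for age Nanos2 0.27, Ybx2 0.45. With 1 library left out at a time, the ranges were for genotype at 11 months Dazl -0.077 to 0.15, Ddx4 -0.12 to 0.094, Nanos3 -0.50 to 0.30, Ybx2 -0.23 to 0.29, Rbm44 -0.082 to 0.091, Taf7l -0.10 to 0.20; for genotype at 3 months Dazl -0.12 to 0.11, Ddx4 -0.0022 to 0.18, Dnd1 -0.16 to 0.091, Nanos3 -0.23 to 0.21, Lin28a -0.36 to 0.20, Ybx2 -0.72 to 0.56, Rbm44 -0.12 to 0.053, Tex14 -0.15 to 0.24, Taf7l -0.11 to 0.19; for age Dnd1 -0.022 to 0.11, Nanos2 -0.58 to 0.19, Nanos3 -0.0085 to 0.39, Ybx2 -0.34 to 0.14, Rbm44 -0.035 to 0.050, Tex14 -0.11 to 0.098. Leaving out 1 library moved the number of genes at an unadjusted p under 0.05 to between 312 and 714 for genotype at 11 months (714 without Tet1KO replicate 1), 159 and 512 for genotype at 3 months (512 without Tet1KO replicate 2), 627 and 2188 for age, and 233 and 645 for the difference of the genotype effects. The replicate block gave 0 called genes in each comparison (374, 337, 1605 and 440 at an unadjusted p under 0.05, in that order) and changed no call. Same-numbered libraries of 3 months had r = -0.59, -0.18 and 0.30, with no common direction. The libraries that stood apart, WT replicate 1 and Tet1KO replicate 2, correlated with each other (r = 0.71), so this check cannot settle pairing at that age. At 11 months every library correlated best with its own number. Depth limits Nanos2 and Lin28a most, since Nanos2 has at most 32 counts in a library.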
